A study of Mus musculus with 16 samples.

Results

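The 10 genes described here encode the peptide transporter and the main amino acid transporters that the small intestinal epithelium uses to absorb digested protein. They were chosen by name from the 54532 genes of a count table, and all 10 were found and had enough reads to be tested in every comparison. They are Slc15a1, Slc6a19, Slc6a20a, Slc7a9, Slc3a1, Slc1a1, Slc7a7, Slc7a8, Slc3a2 and Slc36a1. RNA was sequenced from 16 cultures of mouse jejunal enteroids, which are epithelial cultures grown in a gel from crypts, after they had been moved to a differentiation medium. Myosin Vb (MYO5B) is a motor that carries recycling vesicles to the brush border, and its loss causes microvillus inclusion disease, a congenital diarrhea with malabsorption. The transcript levels of the absorptive carriers were compared between control enteroids and enteroids with deleted or mutant Myo5b, and between vehicle and Compound-1 after the deletion. Compound-1 is a synthetic agonist of the lysophosphatidic acid receptor LPAR5.

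There were 4 groups of 4 cultures, which the study describes as coming from 4 mice per group. MYO5BΔIEC enteroids carried Vil-CreERT2;Myo5b-flox/flox and MYO5B(G519R) enteroids carried Vil-CreERT2;Myo5b-flox/G519R, in which the undeleted allele holds a point mutation modeled on patients. Both were given 1 µM 4-OH-tamoxifen for 24 h in culture, which activates a Cre recombinase that the villin promoter drives in intestinal epithelium. MYO5BΔIEC cultures then received the PBS vehicle or 100 nM Compound-1 for 2 days. The labels call the remaining cultures control with no treatment. The methods describe them as Vil-CreERT2;Myo5b-flox/flox cultures given ethanol in place of 4-OH-tamoxifen, while a figure legend calls them healthy littermates. In each comparison with control, exposure to 4-OH-tamoxifen and the deletion or mutation of Myo5b therefore cannot be told apart.

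Protein reaches the jejunal enterocyte as di- and tripeptides and as free amino acids. Peptides enter across the brush border through the proton-coupled carrier PEPT1, and amino acids enter through carriers that each take a chemical class: neutral amino acids, imino acids, cystine with basic amino acids, or acidic amino acids. Inside the cell most peptides are cut to amino acids, which leave across the basolateral membrane through exchangers built of a light chain that does the transport and a heavy chain that brings it to the membrane. MYO5B acts on the delivery of membrane proteins, which RNA levels do not measure.

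Sequencing depth was 27804968 to 40101729 counts per culture, and levels are given as CPM, the counts scaled to library size with TMM factors, or as the authors' FPKM where genes are compared with each other. Myo5b, the targeted gene, had a mean of 189 ± 29.9 CPM (SD, n = 4) in control. MYO5BΔIEC cultures had 128 ± 31.0 CPM, those with Compound-1 had 111 ± 26.8 CPM and MYO5B(G519R) cultures had 150 ± 17.0 CPM. The control and MYO5BΔIEC ranges overlapped. Counts per gene do not separate full transcripts from those without the floxed part or with the mutation, and the extent of recombination was not tested. The cultures expressed epithelial markers, and the duodenal and jejunal factor Gata4 was at 107 to 192 CPM, while of 4 ileal markers Fabp6 did not exceed 0.556 CPM, Ly6g was at up to 3.57 CPM, Slc10a2 at 1.43 to 17.0 CPM and Osr2 at 5.06 to 32.4 CPM. Of the fibroblast markers, Col3a1, Dcn and Lum were at 0 in all 16 cultures, and the list of 6 summed to at most 0.956 CPM in any culture. Of the 6 immune markers, Ptprc and Cd3e did not exceed 0.181 CPM, while Cd68 was at 2.16 to 8.75 CPM and Itgam at 1.19 to 2.97 CPM, and the list summed to 3.86 to 5.54 CPM in control and 6.02 to 11.4 CPM in MYO5BΔIEC. Control culture 1 stood apart from the other controls. Its correlation with them over 13545 genes was 0.938 to 0.947, and its 12 enterocyte markers (such as Alpi, Apoa4 and Sis) summed to 3973 CPM against 15052 to 19373 CPM in control cultures 2 to 4. Calls against control are therefore given with and without it. In bulk RNA, fewer cells of a type and less RNA per cell cannot be told apart.

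In control enteroids the 10 transporters spanned a wide range of levels per gene length. The highest were both heavy chains, Slc3a1 at 38.2 ± 12.6 FPKM (SD, n = 4) and Slc3a2 at 36.2 ± 19.6 FPKM. They were followed by Slc7a7 at 19.5 ± 1.92, Slc6a20a at 19.0 ± 8.16 and Slc7a9 at 17.1 ± 5.92 FPKM. Slc6a19 at 7.52 ± 2.51, Slc15a1 at 5.98 ± 2.55, Slc7a8 at 4.05 ± 0.661, Slc1a1 at 2.98 ± 0.409 and Slc36a1 at 2.28 ± 0.322 FPKM were the lowest. The order was sharp in only a few places, because the ranges of neighboring genes overlapped except between Slc3a2 and Slc7a7 and between Slc1a1 and Slc36a1.

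**Figure D1:**
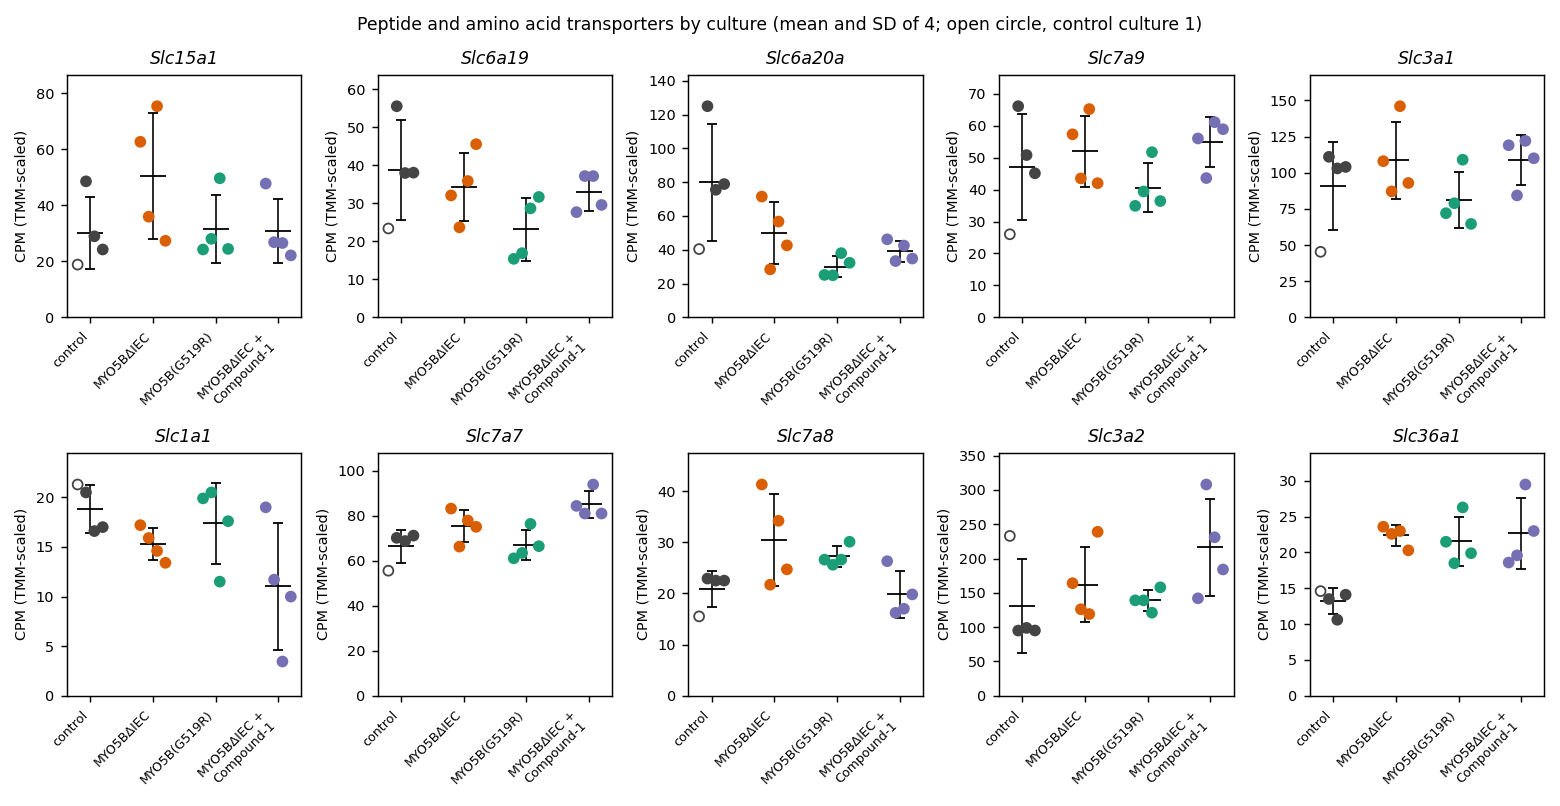
Level of each of the 10 transporters in every culture, as TMM-scaled CPM on axes that start at 0, by group; points are cultures, the horizontal bar and whiskers are the mean and SD of 4, and the open circle is control culture 1. All cultures of the other 3 groups lie above the 4 control cultures for Slc36a1, and all MYO5B(G519R) cultures lie below all control cultures for Slc6a20a.

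Of the 10 transporters, 1 passed the test in MYO5BΔIEC enteroids against control and 2 passed in MYO5B(G519R) enteroids against control. Slc36a1, a proton-coupled carrier of small amino acids found on lysosomes and at the cell surface, rose in both. Slc6a20a, the imino acid carrier that takes up proline, fell in MYO5B(G519R). By edgeR's quasi-likelihood test with a threshold of 0.05 on the adjusted p, 27.4% of all 17951 genes tested passed in MYO5BΔIEC (13.5% higher and 13.8% lower), and 26.8% of 17829 passed in MYO5B(G519R) (13.1% higher and 13.7% lower), so the share among the transporters was no larger than that among all genes. The median log2 fold change of the 10 was 0.23 in MYO5BΔIEC and -0.05 in MYO5B(G519R), beside -0.01 and -0.05 over all genes tested. At an unadjusted p under 0.05 there were 2 of the 10 in MYO5BΔIEC, beside 40.4% of all genes, and 4 in MYO5B(G519R), beside 39.4%. Only Slc36a1 had all MYO5BΔIEC cultures outside the control range, as had 26.9% of all genes. Both comparisons use the same 4 control cultures.

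Without control culture 1, 3 of the 10 passed in MYO5BΔIEC, where 42.0% of all genes tested then did, and 5 of the 10 passed in MYO5B(G519R), where 46.2% of all genes did. The additional calls were Slc6a20a (lower) and Slc3a2 (higher) in MYO5BΔIEC, and Slc6a19 (lower), Slc7a8 and Slc3a2 (higher) in MYO5B(G519R).

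**Figure D2:**
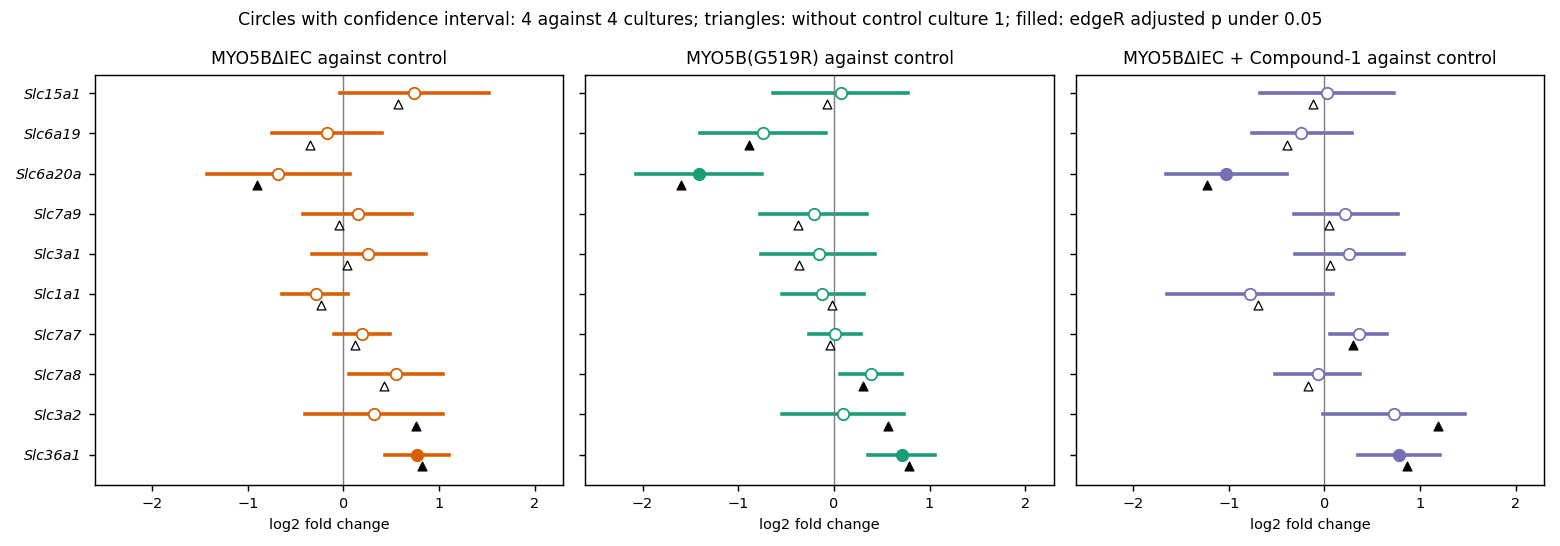
Log2 fold change of each transporter against control in the 3 other groups; circles with lines are the value and 95% interval of 4 against 4 cultures, triangles are the value without control culture 1, and filled symbols have an edgeR adjusted p under 0.05. Slc36a1 is filled in every panel with and without control culture 1, while Slc3a2 is filled only without it.

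Slc36a1 (ENSMUSG00000020261, GRCm38 chromosome 11, 55204350 to 55236330) encodes PAT1. It was at 14.6, 13.5, 10.6 and 14.1 CPM in control cultures 1 to 4 and at 23.6, 22.6, 23.0 and 20.3 CPM in MYO5BΔIEC cultures 1 to 4. In MYO5B(G519R) it was at 21.5, 18.5, 26.3 and 19.9 CPM. No MYO5BΔIEC or MYO5B(G519R) culture fell within the control range. Slc36a1 was 1.70-fold higher in MYO5BΔIEC than in control (log2 fold change 0.77, adjusted p = 0.0052 by edgeR, SE 0.15). The rise in MYO5B(G519R) was 1.63-fold (log2 fold change 0.71, adjusted p = 0.0104 by edgeR, SE 0.16). With only control cultures 2 to 4 the log2 fold changes were 0.82 (edgeR adjusted p = 0.00126) and 0.79 (edgeR adjusted p = 0.00196). In the same cultures the 6 proliferation markers (such as Mki67, Top2a and Pcna) summed to 1651 to 2057 CPM in control cultures, above the 1124 to 1429 CPM of MYO5BΔIEC and overlapping the 1331 to 1688 CPM of MYO5B(G519R), and the 6 stem and progenitor markers (such as Lgr5 and Olfm4) to 2324 to 6346 CPM in control cultures, 904 to 2072 CPM in MYO5BΔIEC and 1273 to 2589 CPM in MYO5B(G519R). The part of these shifts in the Slc36a1 result was not tested.

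The promoters of the 2 transporters that passed are shown because they moved in opposite directions against the same controls. Each sequence is RefSeq's for GRCm38.p6, reads 5′ to 3′ on the gene's strand, and covers 250 bases before and 30 bases from the annotated start site. Capitals mark matches to 4 motifs searched on both strands. Slc36a1 is chr11:55204090-55204369 on the plus strand, and Slc6a20a is chr9:123678803-123679082 on the minus strand.
Slc36a1: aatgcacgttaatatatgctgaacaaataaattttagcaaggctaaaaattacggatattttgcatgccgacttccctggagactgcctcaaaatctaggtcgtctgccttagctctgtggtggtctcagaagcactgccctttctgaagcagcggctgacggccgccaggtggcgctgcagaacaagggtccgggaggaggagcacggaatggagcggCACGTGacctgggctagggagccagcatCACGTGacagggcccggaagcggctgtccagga
Slc6a20a: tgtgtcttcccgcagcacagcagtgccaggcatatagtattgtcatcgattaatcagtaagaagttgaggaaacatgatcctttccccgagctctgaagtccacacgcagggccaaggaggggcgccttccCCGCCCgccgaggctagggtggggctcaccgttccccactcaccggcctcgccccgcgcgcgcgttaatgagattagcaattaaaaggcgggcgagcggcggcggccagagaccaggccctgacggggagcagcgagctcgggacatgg
The motifs were the E-box CACGTG, the GC box GGGCGG, the C/EBP-ATF core TGATGNAA and the CDX core TTTATG, and no matches overlapped in these windows. The Slc36a1 window held the palindromic E-box at 2 places, beginning 31 and 3 bases before the start site, and an E-box stands in 7.15% of all 32851 promoter windows. The Slc6a20a window held 1 GC box, beginning 119 bases before the start site and read on the opposite strand, a motif found in 35.7% of all windows. Over the 10 transporters, 1 had an E-box, 5 a GC box, 1 (Slc7a7) a C/EBP-ATF core and 0 a CDX core in any of their windows. Of all windows, 3.97% held the C/EBP-ATF core and 11.9% the CDX core. The counts are of genes, some with several windows, and the shares are of single windows, so they are not directly comparable. These matches describe the letters of the windows only.

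Slc6a20a (ENSMUSG00000036814, chromosome 9, 123634770 to 123678885) was at 40.4, 125, 75.5 and 78.9 CPM in control cultures 1 to 4. It was at 25.1, 24.9, 38.0 and 32.3 CPM in MYO5B(G519R) cultures 1 to 4, all below the lowest control. In MYO5BΔIEC it was at 71.5, 28.4, 56.7 and 42.6 CPM, which overlapped the control range only through control culture 1. The level in MYO5B(G519R) was 2.66-fold lower than in control (log2 fold change -1.41, adjusted p = 0.00828 by edgeR, SE 0.3). When control culture 1 was left out it was -1.60 on the log2 scale (edgeR adjusted p = 0.000157). The fold change in MYO5BΔIEC was -0.68 on the log2 scale (adjusted p = 0.162 by edgeR, SE 0.34), and without control culture 1 it was -0.90 (adjusted p = 0.0231 by edgeR, SE 0.28). The log2 difference MYO5B(G519R) minus MYO5BΔIEC was -0.72 (95% interval -1.27 to -0.18, edgeR adjusted p = 0.838). The 4 proximal small intestinal markers (Gata4, Lct, Fabp1 and Cyp3a11) summed to 540 CPM in control culture 1 and 4126 to 5020 CPM in control cultures 2 to 4, against 924 to 2036 CPM in MYO5BΔIEC and 1178 to 1537 CPM in MYO5B(G519R). Fabp1, which is also among the 12 enterocyte markers, spanned 245 to 4449 CPM over the 16 cultures. Cyp3a11 spanned 78.7 to 428 CPM, Gata4 107 to 192 CPM and Lct 0.457 to 135 CPM. High sums were thus mostly Fabp1 and do not show that all 4 markers moved together. The part of these markers in the Slc6a20a values was not tested. The neighboring paralog Slc6a20b (chromosome 9, 123590800 to 123632565) had at most 92 counts in any culture. Of 5 genes that overlap Slc6a20a, Gm47171 had the most counts. It lies on the same strand, shares 2794 bases, and its counts over all cultures were 9.728% of those of Slc6a20a.

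Slc6a19 (ENSMUSG00000021565, chromosome 13, 73679745 to 73704865) encodes B0AT1, the main brush border carrier of neutral amino acids and the transporter lost in Hartnup disorder. It was at 23.4, 55.6, 38.0 and 38.1 CPM in control cultures 1 to 4 and at 15.4, 16.9, 28.7 and 31.7 CPM in MYO5B(G519R) cultures 1 to 4. In MYO5BΔIEC it was at 32.1, 23.7, 35.9 and 45.6 CPM, within the control range. The log2 fold change was -0.74 in MYO5B(G519R) (adjusted p = 0.0917 by edgeR, SE 0.3) and -0.17 in MYO5BΔIEC (adjusted p = 0.667 by edgeR, SE 0.26). All MYO5B(G519R) cultures were below control cultures 2 to 4 but not below control culture 1, and without that culture the log2 fold change was -0.89 (adjusted p = 0.0139 by edgeR, SE 0.25). The log2 difference between MYO5B(G519R) and MYO5BΔIEC was -0.56 (adjusted p = 0.838 by edgeR, SE 0.25).

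Slc15a1 (ENSMUSG00000025557, chromosome 14, 121459621 to 121505252) encodes PEPT1, the uptake route for di- and tripeptides. Its level varied more between cultures of a group than between groups. It was at 18.8, 48.5, 28.9 and 24.2 CPM in control cultures 1 to 4. MYO5BΔIEC cultures 1 to 4 held 62.6, 35.9, 75.3 and 27.3 CPM, and MYO5B(G519R) cultures 1 to 4 held 24.2, 28.0, 49.6 and 24.4 CPM. MYO5BΔIEC cultures 1 and 3 were above every control, and the other 2 were within the control range. The log2 fold change was 0.74 in MYO5BΔIEC (95% interval -0.04 to 1.52, edgeR adjusted p = 0.141), which includes both no difference and a 2.88-fold rise, and 0.07 in MYO5B(G519R) (95% interval -0.64 to 0.78, edgeR adjusted p = 0.898).

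The cystine and basic amino acid carrier of the brush border is a pair of Slc7a9 (b0,+AT, the transporting chain) and Slc3a1 (rBAT, the heavy chain), and defects in either cause cystinuria. Both transcripts kept to a near-constant proportion across all 16 cultures, although each varied more than 2-fold within the controls. The FPKM of Slc7a9 (ENSMUSG00000030492, chromosome 7, 35448796 to 35466036) per FPKM of Slc3a1 (ENSMUSG00000024131, chromosome 17, 85028347 to 85064243) was 0.435 ± 0.04 (SD, n = 16) and ranged from 0.375 to 0.514. The group mean of this ratio was lowest in MYO5BΔIEC (0.415) and highest in control (0.452), and both other groups were at 0.436. Slc3a1 was at 45.3 CPM in control culture 1 and at 111, 103 and 104 CPM in control cultures 2 to 4, and Slc7a9 was at 26.0 CPM and at 66.1, 50.8 and 45.1 CPM. Control culture 1 was thus the lowest of the 16 for both chains, as it was for the summed enterocyte markers.

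Slc3a1 was at 108, 87.1, 146 and 92.9 CPM in MYO5BΔIEC and at 72.0, 78.9, 109 and 64.6 CPM in MYO5B(G519R). Its log2 fold change against control was 0.26 (95% interval -0.33 to 0.86, edgeR adjusted p = 0.509) and -0.16 (95% interval -0.76 to 0.43, edgeR adjusted p = 0.694). Slc7a9 had log2 fold changes of 0.15 (edgeR adjusted p = 0.707) and -0.21 (edgeR adjusted p = 0.575). Neither chain passed in either group. Prepl, on the opposite strand, shares 767 bases with the end of Slc3a1, and its counts over all cultures were 60.068% of those of Slc3a1. The library protocol names no step that marks strand, so reads from the shared bases cannot be told apart.

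**Figure D3:**
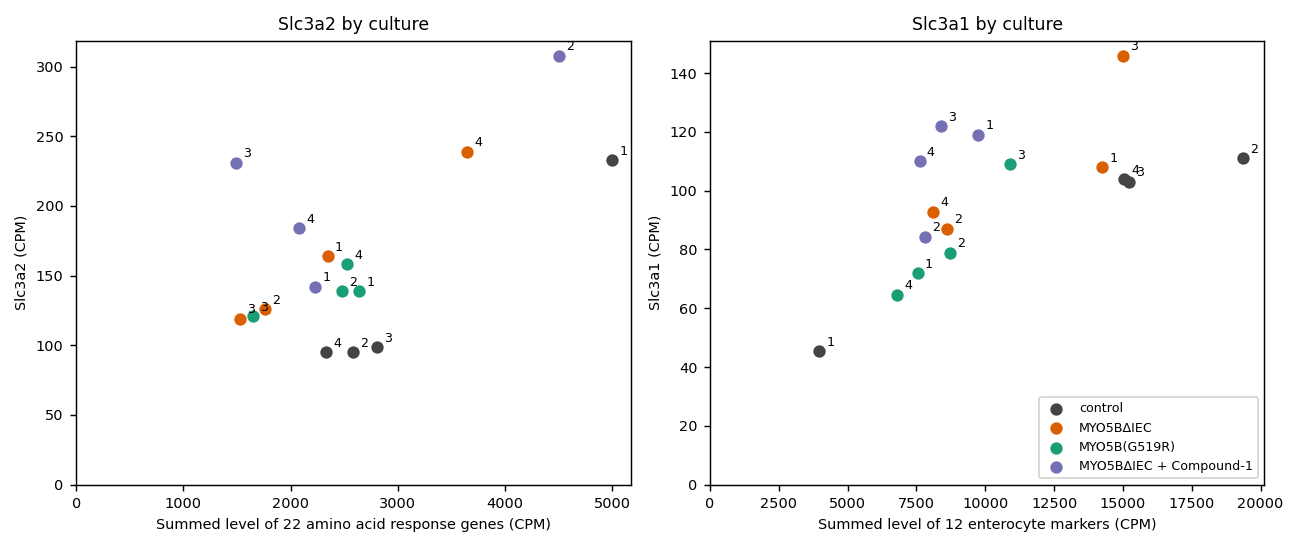
Left, Slc3a2 against the summed CPM of 22 amino acid response genes in each of the 16 cultures; right, Slc3a1 against the summed CPM of 12 enterocyte markers, with both axes from 0, colors for groups and numbers for cultures. Control culture 1, at 233 CPM of Slc3a2 and 45.3 CPM of Slc3a1, lies away from the other controls in both panels.

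Slc3a2 (ENSMUSG00000010095, chromosome 19, 8706882 to 8723369) encodes 4F2hc (CD98), the heavy chain of the basolateral exchangers and of other carriers throughout the body. It was at 233 CPM in control culture 1 and at 94.9, 98.8 and 95 CPM in control cultures 2 to 4. MYO5BΔIEC cultures 1 to 4 held 164, 126, 119 and 239 CPM, and MYO5B(G519R) cultures 1 to 4 held 139, 139, 121 and 158 CPM. Every culture of these groups was above control cultures 2 to 4, and only MYO5BΔIEC culture 4 exceeded control culture 1. With all 4 controls the log2 fold change was 0.32 in MYO5BΔIEC (adjusted p = 0.504 by edgeR, SE 0.33) and 0.09 in MYO5B(G519R) (adjusted p = 0.843 by edgeR, SE 0.28). Without control culture 1 it was 0.76 (adjusted p = 0.0152 by edgeR, SE 0.21) and 0.57 (adjusted p = 0.000949 by edgeR, SE 0.1).

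Slc3a2 is also a known target of the amino acid response, the program of the transcription factor ATF4 that cells run when amino acids are short, and 22 other genes of that program were summed in each culture. The sum was 5000 CPM in control culture 1 and 2330 to 2809 CPM in control cultures 2 to 4. In MYO5BΔIEC it was 3646 CPM in culture 4 and 1524 to 2347 CPM in the others. The culture with the highest Slc3a2 therefore also had the highest sum in control, in MYO5BΔIEC (culture 4) and in Compound-1-treated MYO5BΔIEC (culture 2, at 308 CPM of Slc3a2 and a sum of 4505 CPM). In MYO5B(G519R), Slc3a2 was highest in culture 4 and the sum in culture 1, at 2530 and 2643 CPM. Control cultures 2 to 4 had lower Slc3a2 than cultures of other groups with smaller sums, such as MYO5BΔIEC culture 3 at 119 CPM with a sum of 1524 CPM. The part of this program in the Slc3a2 values was not tested.

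Slc7a7 and Slc7a8, the basolateral light chains among the 10, lie on chromosome 14, 304428 bases apart. Slc3a2 also pairs with other light chains, among them Slc7a5, Slc7a6 and Slc7a11. Slc7a7 (ENSMUSG00000000958, 54369442 to 54417780) encodes y+LAT1, which exports basic amino acids and is defective in lysinuric protein intolerance. It was at 55.5, 70.1, 68.7 and 71.1 CPM in control, at 83.1, 66.2, 77.8 and 75.0 CPM in MYO5BΔIEC and at 61.0, 63.4, 76.3 and 66.4 CPM in MYO5B(G519R). The groups overlapped, and the log2 fold change was 0.19 in MYO5BΔIEC (95% interval -0.10 to 0.49, edgeR adjusted p = 0.312) and 0.01 in MYO5B(G519R) (95% interval -0.26 to 0.28, edgeR adjusted p = 0.963). These intervals reach no further than a 1.4-fold rise in MYO5BΔIEC. Oxa1l, on the opposite strand, shares 232 bases with Slc7a7, and its counts over all cultures were 127.357% of those of Slc7a7.

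Slc7a8 (ENSMUSG00000022180, chromosome 14, 54722209 to 54781946) encodes LAT2, which exchanges neutral amino acids. It was at 15.5, 22.9, 22.5 and 22.5 CPM in control, at 41.3, 21.7, 34.2 and 24.7 CPM in MYO5BΔIEC and at 26.6, 25.6, 26.6 and 30.1 CPM in MYO5B(G519R). All MYO5B(G519R) cultures were above all controls, whereas MYO5BΔIEC culture 2 was within the control range. The log2 fold change was 0.39 in MYO5B(G519R) (adjusted p = 0.0768 by edgeR, SE 0.15) and 0.55 in MYO5BΔIEC (adjusted p = 0.0862 by edgeR, SE 0.22), and neither passed in these fits. The outcome depended on the method. By DESeq2 the MYO5B(G519R) value passed (adjusted p = 0.0302), and with all groups in one fit the MYO5BΔIEC value passed (edgeR adjusted p = 0.0449). Without control culture 1, the MYO5B(G519R) value was 0.30 (adjusted p = 0.0251 by edgeR, SE 0.09). Over all genes tested, 27.4% had MYO5B(G519R) cultures all outside the control range, as did Slc7a8, Slc36a1 and Slc6a20a among the 10.

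These light chains were set against the heavy chain they need, leaving out its other partners. The summed FPKM of Slc7a7 and Slc7a8 per FPKM of Slc3a2 was 0.3 in control culture 1 and 0.901 to 0.964 in control cultures 2 to 4. Its range was 0.407 to 0.899 in MYO5BΔIEC, 0.316 to 0.763 in MYO5BΔIEC with Compound-1, and 0.581 to 0.827 in MYO5B(G519R). All 12 cultures with deleted or mutant Myo5b were thus below control cultures 2 to 4 and above control culture 1. No test was run on this ratio.

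Slc1a1 (ENSMUSG00000024935, chromosome 19, 28835049 to 28913960) encodes EAAT3, which takes up glutamate and aspartate. It was at 21.3, 20.5, 16.6 and 17.0 CPM in control, at 17.2, 15.9, 14.6 and 13.4 CPM in MYO5BΔIEC and at 19.9, 20.5, 11.5 and 17.6 CPM in MYO5B(G519R). The log2 fold change was -0.29 in MYO5BΔIEC (95% interval -0.64 to 0.05, edgeR adjusted p = 0.183) and -0.12 in MYO5B(G519R) (95% interval -0.54 to 0.31, edgeR adjusted p = 0.689). The groups overlapped in both comparisons.

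Compound-1 was compared with vehicle in MYO5BΔIEC enteroids to ask whether it moved these transporters. By edgeR, 0 of the 10 passed, as did 0 of 18037 genes tested (0.0%). DESeq2 also called 0 of the 10, and 91 genes in all. At an unadjusted p under 0.05, 2 of the 10 were found beside 1355 genes (7.51%), and both were lower with Compound-1. The ranges of both groups overlapped for every one of the 10, and did not for 2.86% of all genes. Slc15a1 was at 47.7, 26.8, 26.5 and 22.1 CPM in Compound-1-treated cultures 1 to 4, which overlapped the vehicle range of 27.3 to 75.3 CPM, with a log2 difference of -0.74 (95% interval -1.46 to -0.02, edgeR adjusted p = 0.659). Slc7a8 was at 26.3, 16.2, 17.0 and 19.8 CPM, with a log2 difference of -0.65 (95% interval -1.15 to -0.15, edgeR adjusted p = 0.56).

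The other 8 transporters had log2 differences between Compound-1 and vehicle of -0.50 (Slc1a1, edgeR adjusted p = 0.874) to 0.39 (Slc3a2, edgeR adjusted p = 0.832). The narrowest interval was that of Slc7a7, the y+LAT1 chain, whose log2 difference was 0.14 (95% interval -0.12 to 0.40). Slc36a1 differed by -0.01 (95% interval -0.39 to 0.36) and Slc3a1 by -0.03 (95% interval -0.42 to 0.37), so that rises above 1.28-fold and 1.29-fold lay outside these intervals. Wider intervals, such as -0.91 to 0.16 for the imino acid carrier Slc6a20a, leave room for a larger fall. Slc1a1 was at 19.0, 11.7, 3.44 and 9.99 CPM with Compound-1, and culture 3, the lowest of all 16, also had the lowest sum of proliferation markers (738 CPM against 1280 to 1501 CPM in the others of its group) and the highest sum of 7 goblet cell markers (5863 CPM against 2141 to 4113 CPM). The part of this composition in the Slc1a1 value was not tested.

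The light chains were also set against each other. The FPKM of Slc7a7 per FPKM of Slc7a8 was 6.72 ± 1.54 (SD, n = 4, range 4.85 to 8.34) with Compound-1 and 3.92 ± 0.802 (range 3.04 to 4.61) with vehicle, and the groups did not overlap. In control it was 4.85 ± 0.387 and in MYO5B(G519R) 3.71 ± 0.443. The ratio was chosen with the values of both genes known, and no test was run on it.

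Against control, Compound-1-treated MYO5BΔIEC enteroids had 2 of the 10 past the threshold, where 29.4% of 17937 genes passed by edgeR (15.7% higher and 13.7% lower). Slc36a1 was at 18.6, 19.6, 29.5 and 23.0 CPM, all above every control, and was 1.72-fold higher (log2 fold change 0.78, adjusted p = 0.0142 by edgeR, SE 0.19). Slc6a20a was at 46.2, 33.3, 42.5 and 34.8 CPM, of which 2 were above control culture 1 and all were below control cultures 2 to 4, and was 2.04-fold lower (log2 fold change -1.03, adjusted p = 0.023 by edgeR, SE 0.29). Slc7a7 was at 84.3, 80.9, 93.8 and 80.9 CPM, above all 4 controls, with a log2 fold change of 0.36 (adjusted p = 0.0668 by edgeR, SE 0.13). With the same cultures Slc7a7 passed by DESeq2 (adjusted p = 0.0299) and by limma (adjusted p = 0.045). It also passed with all groups in one fit (edgeR adjusted p = 0.022) and with the length trend removed (edgeR adjusted p = 0.0491). Slc36a1 and Slc7a7 were the only ones of the 10 without overlap, which 27.9% of all genes showed. Slc3a2 was at 142, 308, 231 and 184 CPM, with a log2 fold change of 0.73 (adjusted p = 0.126 by edgeR, SE 0.34). The Slc6a20a call was lost without any 1 of control cultures 2, 3 and 4 or Compound-1 cultures 2, 3 and 4 (edgeR adjusted p = 0.0504 to 0.0696), and that of Slc36a1 without control culture 3 (edgeR adjusted p = 0.0526). Slc6a20a also did not pass by limma (adjusted p = 0.0501) or with the replicate number as a block (edgeR adjusted p = 0.0621). When control culture 1 was left out, 4 of the 10 passed beside 42.1% of all genes, and the added calls were Slc3a2 (log2 fold change 1.19, edgeR adjusted p = 0.00355) and Slc7a7 (0.30, edgeR adjusted p = 0.0436).

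MYO5B(G519R) and MYO5BΔIEC enteroids were compared with each other to set a mutant motor against a deleted one. By edgeR 0 of the 10 transporters passed and 1 gene of 17943 did (0.00557%), and DESeq2 called 0 of the 10 and 4 genes in all. That gene was BC035947, which was named after its values were seen, at a log2 difference of -7.09 (edgeR adjusted p = 0.011). At an unadjusted p under 0.05, 3 of the 10 were found beside 772 genes (4.30%), and all 3 were lower in MYO5B(G519R). The groups overlapped for all 10, and did not for 1.85% of all genes. They were Slc6a20a and Slc6a19, with the values given above, and Slc3a1, with a log2 difference of -0.42 (adjusted p = 0.838 by edgeR, SE 0.19).

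Among 31 other amino acid and peptide carriers, 25 had enough reads to be tested. In MYO5BΔIEC against control, 3 passed higher and 1 lower, where 27.4% of all genes passed, with a median log2 fold change of 0.12. Slc43a2 (LAT4, a basolateral exporter of branched-chain amino acids and phenylalanine) was at 12.9 ± 1.51 CPM (SD, n = 4) in control and 32.5 ± 8.56 CPM in MYO5BΔIEC, a 2.52-fold rise (edgeR adjusted p = 0.00207). Slc6a6, the taurine carrier, was at 131 ± 9.11 and 260 ± 34.5 CPM, a 1.99-fold rise (edgeR adjusted p = 0.00175), and Slc38a10 rose 1.5-fold (edgeR adjusted p = 0.00739). Slc7a2 (CAT2, a carrier of basic amino acids) fell by 1.61 on the log2 scale, from 12.8 ± 7.64 to 4.16 ± 2.69 CPM (edgeR adjusted p = 0.027), and control culture 1 alone was at 24.2 CPM. When control culture 1 was left out, 10 passed higher and 1 lower, where 42.0% of all genes passed, and the median was 0.56. The Slc7a2 call was lost without MYO5BΔIEC culture 2, 3 or 4 (edgeR adjusted p = 0.0686 to 0.0804).

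In MYO5B(G519R) against control, 5 of the 25 passed higher and 3 lower, where 26.8% of all genes passed, with a median of -0.07. Slc43a2 rose 1.97-fold (edgeR adjusted p = 0.005), Slc6a6 1.86-fold (edgeR adjusted p = 0.00222) and Slc38a10 1.51-fold (edgeR adjusted p = 0.00379), and Slc7a2 fell by 1.51 on the log2 scale (edgeR adjusted p = 0.0149). The others, named after their values were seen, were Slc38a3 and Slc43a1 (higher) and Slc1a3 and Slc7a15 (lower). Leaving out control culture 1 gave 13 higher and 6 lower and a median of 0.40, where 46.2% of all genes passed. In Compound-1-treated MYO5BΔIEC against control 4 passed higher and 3 lower (median 0.33), where 29.4% of all genes passed. Against vehicle 0 passed by edgeR (0.0% of all genes), with 5 at an unadjusted p under 0.05 (7.51% of all genes) and 1 by DESeq2.

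**Figure D4:**
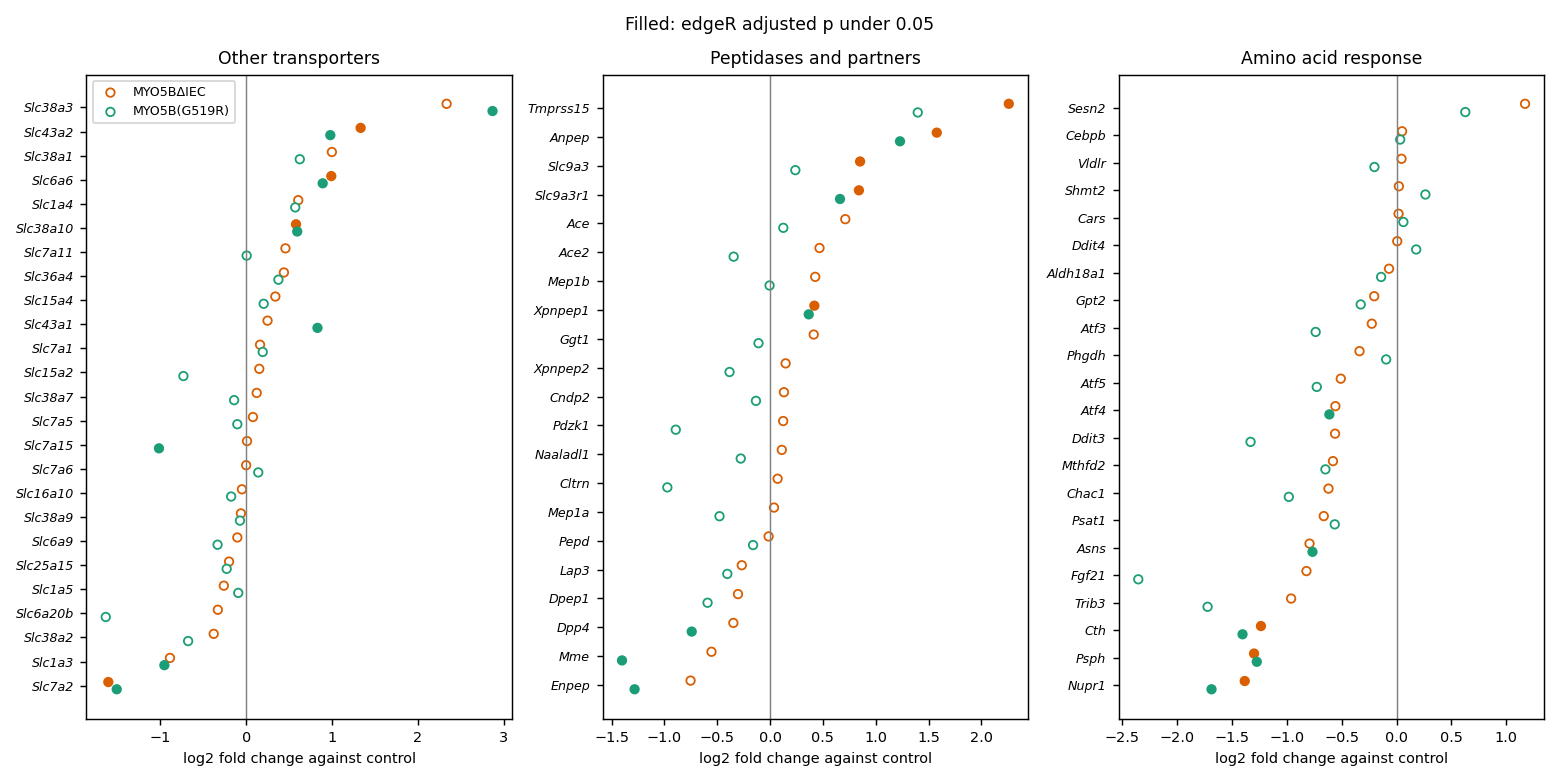
Log2 fold change against control of every tested gene of 3 wider lists, in MYO5BΔIEC (orange) and MYO5B(G519R) (green), ordered by the value in MYO5BΔIEC; filled points have an edgeR adjusted p under 0.05. Anpep, Slc43a2 and Slc6a6 are filled to the right in both groups, and Cth, Psph and Nupr1 are filled to the left in both, with all 4 controls.

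The peptidases that make the substrates of these carriers, and the partners that hold or energize the carriers at the brush border, formed a list of 21, all tested. In MYO5BΔIEC against control 5 passed higher and 0 lower, where 27.4% of all genes passed, and the median log2 fold change was 0.13. Anpep (aminopeptidase N, which frees the amino acids at the ends of peptides) was at 166 ± 7.19 CPM in control and 492 ± 109 CPM in MYO5BΔIEC, a 2.99-fold rise (edgeR adjusted p = 0.0014), and all MYO5BΔIEC cultures were above all controls. Slc9a3r1 (NHERF1, a scaffold of brush border proteins) rose 1.79-fold (edgeR adjusted p = 0.00487) and Slc9a3 (NHE3, the sodium-proton exchanger that maintains the proton gradient used by PEPT1) rose 1.81-fold (edgeR adjusted p = 0.0259). Tmprss15 (enteropeptidase, which activates trypsinogen) rose 4.79-fold from a low level, 0.618 ± 0.472 to 2.97 ± 1.60 CPM (edgeR adjusted p = 0.0254). The remaining gene was Xpnpep1. Those 5 also passed without control culture 1, where 42.0% of all genes passed. Enpep and Lap3 then passed lower, and the median was 0.08. Anpep and Slc9a3r1 passed whichever 1 of the 8 cultures was left out. The Slc9a3 call was lost without control culture 4 or MYO5BΔIEC culture 1 or 3 (edgeR adjusted p = 0.0591 to 0.0706), that of Tmprss15 without control culture 3 or 4 or MYO5BΔIEC culture 1 or 4 (edgeR adjusted p = 0.0541 to 0.0733), and that of Xpnpep1 in 6 of 8 cases, so that the count fell to 2 at the lowest. It was 3 with the replicate block and 3 with the length trend removed.

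In MYO5B(G519R) against control 3 of the 21 passed higher and 3 lower, where 26.8% of all genes passed, with a median of -0.28. Anpep rose 2.34-fold (edgeR adjusted p = 0.00247) and Slc9a3r1 1.58-fold (edgeR adjusted p = 0.0151), while Slc9a3 had a log2 fold change of 0.24 (edgeR adjusted p = 0.428). Those that fell, named after their values were seen, were the membrane peptidases Dpp4, Enpep and Mme. Leaving out control culture 1 gave 3 higher and 8 lower, where 46.2% of all genes passed. In Compound-1-treated MYO5BΔIEC against control 3 passed higher and 6 lower (median -0.27), where 29.4% of all genes passed. Against vehicle 0 passed by edgeR, as did 0.0% of all genes. At an unadjusted p under 0.05 there were 10 (7.51% of all genes), DESeq2 called 1, and the median was -0.49.

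The 22 amino acid response genes, which cells induce through ATF4 when amino acids run short, were all tested in MYO5BΔIEC against control. With all controls, 0 passed higher and 3 lower, where 27.4% of all genes passed, and the median log2 fold change was -0.53. Nupr1 (a stress-induced regulator) fell by 1.39 on the log2 scale (edgeR adjusted p = 0.0466), Psph (the last step of serine synthesis) by 1.30 (edgeR adjusted p = 0.0442) and Cth (which makes cysteine from cystathionine) by 1.24 (edgeR adjusted p = 0.0255). The median of the list changed sign without control culture 1, to 0.19. Atf3, Sesn2 and Vldlr then passed higher and Cth passed lower, where 42.0% of all genes passed. Cth then had a log2 fold change of -1.06 (edgeR adjusted p = 0.0292), while Nupr1 and Psph did not pass (edgeR adjusted p = 0.0842 and 0.0629). Over the 8 cultures left out in turn, 0 to 7 of the list were called, with 0 without control culture 3 or MYO5BΔIEC culture 1, 2 or 3, and 7 without MYO5BΔIEC culture 4. The Cth call was lost in those 4 cases (edgeR adjusted p = 0.0536 to 0.0714), that of Nupr1 in 6 of 8 and that of Psph in 7 of 8, all but without MYO5BΔIEC culture 4.

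In MYO5B(G519R) against control 0 of the 22 passed higher and 5 lower, where 26.8% of all genes passed, with a median of -0.63. The 5 were Cth (log2 fold change -1.41, edgeR adjusted p = 0.00375), Psph (-1.28, edgeR adjusted p = 0.0122), Nupr1 (-1.69, edgeR adjusted p = 0.0133) and, named after their values were seen, Asns and Atf4. With only control cultures 2 to 4, 21 were tested and the median was 0.09. Of these, 3 passed higher and 5 lower, where 46.2% of all genes passed. In Compound-1-treated MYO5BΔIEC the list had 0 calls against control by edgeR, where 29.4% of all genes passed. It had 1 at an unadjusted p under 0.05 (41.9% of all genes) and 1 by DESeq2. Against vehicle it had 0 by edgeR (0.0% of all genes), 0 at an unadjusted p under 0.05 (7.51%) and 0 by DESeq2.

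The genes most like a transporter over the 16 cultures were found by the Pearson r of log2 CPM among genes with a mean of at least 1 CPM, as a description. The cultures share groups and differ in composition, which this measure does not separate. For Slc15a1 they were Ggt1 (r = 0.919), a brush border enzyme that splits glutathione, Clic5 (0.899) and H2-Q2 (0.896). For Slc6a19 they were Cyp2c29 (0.912), Cyp2j6 (0.876) and Mlx (0.870), and for Slc3a2 they included Ric8a (0.942) and Sqstm1 (0.939), an autophagy receptor. Taken as deviations from group means, the values were 0.806 to 0.950 for these 8 genes.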

How the data were processed

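RNA was measured in 16 enteroid cultures, grouped by their sample labels. Per the labels, poly(A) RNA libraries were sequenced, and the submitters' processing notes name STAR 2.5, TopHat, HTSeq 0.6.1, DESeq2 and GRCm38 (mm10). The deposited counts are the authors' reads per gene, and the deposited FPKM are the authors' values from the same reads scaled by gene length. The annotation release and the strand setting are not given in the sources used here, nor is the treatment of reads with several matches.

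The tests on counts used edgeR 4.0.16 (R 4.3.3): TMM scaling, a minimum of 10 counts in 2 or more of the cultures in a comparison, groups compared in pairs by the quasi-likelihood F test over all genes, and Benjamini-Hochberg adjustment with a threshold of 0.05. CPM use TMM factors from all 16 libraries, and intervals are 95%. Differences are first group minus second on the log2 scale. The procedure was tested on simulated data. The spread between cultures sets the p-values. DESeq2 1.42.0, limma 3.58.1 on log2(FPKM + 1), other filters and scalings, a gene length correction, the replicate number as a block, and each culture left out were tried as alternatives.

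The transporters and lists were chosen with earlier results of these data known. Named genes were the 10 transporters, up to 4 called genes rising and falling most per list in MYO5BΔIEC against control, and the 3 genes most like each of Slc15a1, Slc6a19 and Slc3a2. Some genes that these rules or lists hold are not reported here. Replicate numbers were not taken as pairs, because in no comparison did the deviations of same-numbered cultures correlate above 0.1 in every pair (the most was 3 of 4, in MYO5B(G519R) against MYO5BΔIEC, at 0.0858 to 0.599). Promoter windows came from RefSeq (GRCm38.p6), where 10 of 10 transporters matched.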

Additional observations from a re-analysis of the deposited data

Results flagged for a closer look

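Of 84 sets of 4 cultures (a named gene in a group), 11 had a culture whose gap to the nearest other was larger, as a share of the set's range, than Dixon's critical value, and chance alone gives about 1 in 20. Control culture 1 accounted for 6 of them. It was low in Slc3a1 (45.3 CPM, rBAT), Slc7a7 (55.5 CPM, y+LAT1) and Slc7a8 (15.5 CPM, LAT2), and high in Slc3a2 (233 CPM, 4F2hc), Slc38a10 (69.3 CPM) and Slc7a2 (24.2 CPM, CAT2). MYO5B(G519R) culture 3 was high in Slc15a1 (49.6 CPM, PEPT1), Slc6a6 (294 CPM) and Slc43a2 (35.1 CPM) and low in Cth (73.0 CPM). MYO5BΔIEC culture 4 was high in Nupr1 (65.0 CPM).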

How the results depend on the processing

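Other settings left most log2 fold changes in place. Beside those that leave out 1 culture, 638 of 664 log2 values of named genes kept their direction and their side of the threshold. Counts of calls were not among the 664, and several moved by more than 1.5 times. The transporters called in MYO5BΔIEC against control were 2 with all groups in one fit and 2 with the gene length trend removed. The other carriers called were 7 by DESeq2 in MYO5BΔIEC against control, 5 by limma in MYO5B(G519R) against control and 1 by DESeq2 between Compound-1 and vehicle. All genes called between Compound-1 and vehicle were 91 by DESeq2 and 12 without a filter, and between MYO5B(G519R) and MYO5BΔIEC 4 by DESeq2, 2 without a filter and 0 by limma. With the replicate number as a block, 1 transporter was called in Compound-1-treated MYO5BΔIEC against control, and all genes called were 3647, 3691, 0, 4401 and 1 in MYO5BΔIEC, MYO5B(G519R), Compound-1 against vehicle, Compound-1 against control and MYO5B(G519R) against MYO5BΔIEC. The correlation of same-numbered cultures ran from -0.225 to 0.599. Log2 values that changed sign were Slc15a1 in MYO5B(G519R) (-0.0393) and Compound-1 (-0.0889) against control with the length trend removed, and, between Compound-1 and vehicle, Slc3a1 (0.00277, limma) and Slc36a1 (0.0139, one fit). The cause was not tested.

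With each culture left out in turn, calls against control ranged over 2963 to 7474 genes, 1 to 3 transporters and 3 to 11 other carriers in MYO5BΔIEC, over 2880 to 8146, 2 to 5 and 4 to 19 in MYO5B(G519R), and over 2957 to 7459, 0 to 4 and 4 to 15 in Compound-1-treated MYO5BΔIEC. Between MYO5B(G519R) and MYO5BΔIEC, 0 to 2 genes were called. Signs changed within these log2 ranges against control: Slc6a19 -0.352 to 0.0544 and Slc7a9 -0.0508 to 0.362 in MYO5BΔIEC, Slc15a1 -0.238 to 0.397, Slc1a1 -0.209 to 0.0363, Slc7a7 -0.0619 to 0.0521 and Slc3a2 -0.0323 to 0.565 in MYO5B(G519R), and Slc15a1 -0.261 to 0.358, Slc7a8 -0.241 to 0.0117 and Nupr1 -0.965 to 0.127 in Compound-1-treated MYO5BΔIEC. Between Compound-1 and vehicle they were Slc6a19 -0.224 to 0.0724, Slc7a9 -0.0481 to 0.174, Slc3a1 -0.116 to 0.147 and Slc36a1 -0.164 to 0.0669. Between MYO5B(G519R) and MYO5BΔIEC they were Slc7a8 -0.286 to 0.0255, Slc3a2 -0.327 to 0.028 and Slc36a1 -0.162 to 0.0109.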
